A study of Rattus norvegicus with 6 samples.

Results

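The 10 genes described here, Hspa5, Xbp1, Dnajb9, Herpud1, Atf4, Ddit3, Trib3, Chac1, Sesn2 and Asns, belong to the cell's answer to misfolded protein in the endoplasmic reticulum (ER) and to a shortage of amino acids. They were taken as a list of gene names, and every array probe whose accession maps to one of them was used: 15 probes, of which 14 passed the filter on dim spots (called well above background by the scanner software in all 3 livers of either group). The fit covered 28112 features, 11114 of them named genes. Livers came from male Sprague-Dawley (Crl:CD(SD)) rats, bought at an age of 5 weeks, treated with BBMP, 2,2-bis(bromomethyl)-1,3-propanediol, at 1000 mg/kg/day (n = 3) or with corn oil alone (n = 3). The series design puts the measurement at 28 days, while the treatment protocol states that administration lasted 9 weeks. BBMP is used as a flame retardant in plastics. Each liver was read on 1 single-colour Agilent array. The question the comparison addresses is how liver expression of these genes differs after BBMP.

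Proteins that fail to fold in the ER activate 3 sensors in its membrane. IRE1 splices the Xbp1 messenger, ATF6 is cut to release a transcription factor, and PERK phosphorylates the translation factor eIF2alpha, which slows protein synthesis while the transcription factor ATF4 is made. A shortage of amino acids reaches the same eIF2alpha step through the kinase GCN2, so the ATF4 targets respond to both. Hepatocytes secrete large amounts of plasma protein and have abundant ER, and in the liver these genes are used as readouts of toxic, nutritional and secretory load.

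Letters known as binding elements of these pathways were looked for in the RefSeq promoter of each gene (GRCr8, 250 bases before to 50 bases after the start, both strands), and all 10 genes had a promoter in that table. The ER stress response element, CCAAT and CCACG placed 9 bases apart, is bound by ATF6 with NF-Y. It was found in 22 of 33469 promoters (0.0657%), and Hspa5 and Xbp1 were among them. The ER stress response element II, ATTGG and CCACG placed 1 base apart, was found in 17 promoters (0.0508%), Herpud1 among them. The C/EBP-ATF element TGATGNAA, bound by ATF4 with a C/EBP partner, was found in 1332 promoters (3.98%), among them those of Herpud1, Chac1 and Trib3. The letters TGACGTGG, bound by XBP1 and ATF6, stood in 199 promoters (0.595%) and in 0 of the 10. Read on the other strand, TGACGTGG contains CCACG, which both ER stress response elements share. Asns, Atf4, Ddit3, Dnajb9 and Sesn2 had 0 matches in this window. For Asns, Dnajb9 and Herpud1 the start used lies inside the annotated gene, so the window does not reach the gene's upstream end. The matched stretches are shown to give the letters of both kinds of element where they occur; Herpud1 holds both kinds. Capitals mark the matched letters, 5′ to 3′ on the gene's strand, and the ATF4 matches are on the opposite strand and so read as the reverse complement.
Hspa5 (chr3:38452963-38453001, plus strand): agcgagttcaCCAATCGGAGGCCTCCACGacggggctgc
Xbp1 (chr14:84604548-84604586, plus strand): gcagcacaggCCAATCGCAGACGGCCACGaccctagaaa
Herpud1 (chr19:10614811-10614901, minus strand): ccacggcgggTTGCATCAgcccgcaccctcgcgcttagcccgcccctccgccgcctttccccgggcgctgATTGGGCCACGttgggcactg
Chac1 (chr3:126795954-126795981, plus strand): ttctccgccgTTGCATCActcctgctag
Trib3 (chr3:161275537-161275564, minus strand): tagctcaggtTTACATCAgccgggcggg
Counted from the start, the element spans positions -43 to -25 in Hspa5 and -65 to -47 in Xbp1. Herpud1 holds an ATF4 element at -184 to -177 and the ER stress response element II at -124 to -114. The ATF4 element spans -167 to -160 in Chac1 and -21 to -14 in Trib3. A match shows only that the letters are present in the reference sequence.

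Of 61573 probes, the scanner software called 60.1% well above background in corn oil 2 and 62.7% to 64.4% on each other array. Precision is limited by there being only 6 arrays. The BBMP livers shared 1 slide and scan and the corn oil livers another, so treatment and slide cannot be told apart in any difference below. The liver of corn oil 2 stood apart from the rest on the main component of variation (32.9% of the variance), at -50.84, against 19.09 to 28.70 in BBMP livers and -9.60 and -14.82 in the other corn oil livers. Values without it are given beside the results it moves most. All 6 hepatocyte markers looked for, albumin among them, were well above background on every array. These are bulk livers, so fewer cells of a type and less RNA per cell cannot be told apart. The p-values set each difference against the spread between animals within the groups, which limma draws in part from all features. Variation between slides is not in that spread.

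None of the 10 genes passed the test. Levels are given as log2 of the processed signal minus log2 of the array's 75th percentile, so that 0 is the brightness of a spot at that percentile and 1 unit is a doubling. Limma adjusted p lay between 0.522 and 0.994, and 0 members were past 0.05, where 0.00711% of all features were. At an unadjusted p under 0.05 there were also 0 members, where 10.8% of all features were, and the groups did not overlap for 0 members, against 17.9% of all features. The mean after BBMP was higher for 3 members and lower for 7, with 52.5% of all features lower. The median difference of the members was -0.14, beside -0.01 over all features. The fit was repeated without each array in turn, and these counts for the fit without corn oil 2 were added after seeing the data. In it, 5 members were higher and 5 lower, with a median of -0.03 and again 0 past an adjusted or unadjusted 0.05.

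Most members varied more between animals of a group than the median feature did. The SD over the 3 corn oil livers exceeded the median SD of all features (0.17) for 8 members, and the SD over the 3 BBMP livers exceeded the all-feature median (0.16) for 7. Xbp1, Ddit3 and Trib3 were at the 96.1, 95.4 and 94.7 percentiles of all corn oil SDs, and Herpud1 at the 97.4 percentile of all BBMP SDs. Among corn oil livers, Dnajb9 and Sesn2 lay below the all-feature median, at the 9.26 and 45.2 percentiles. These SDs rest on 3 livers each and were not tested. On the probe that represents each gene, the difference between the group means was smaller than the larger group SD for 9 of the 10. Sesn2 was the exception. The same held for 19088 of the 28112 features. On the other Herpud1 probe the difference, 0.93, exceeded the larger group SD, 0.84.

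**Figure D1:**
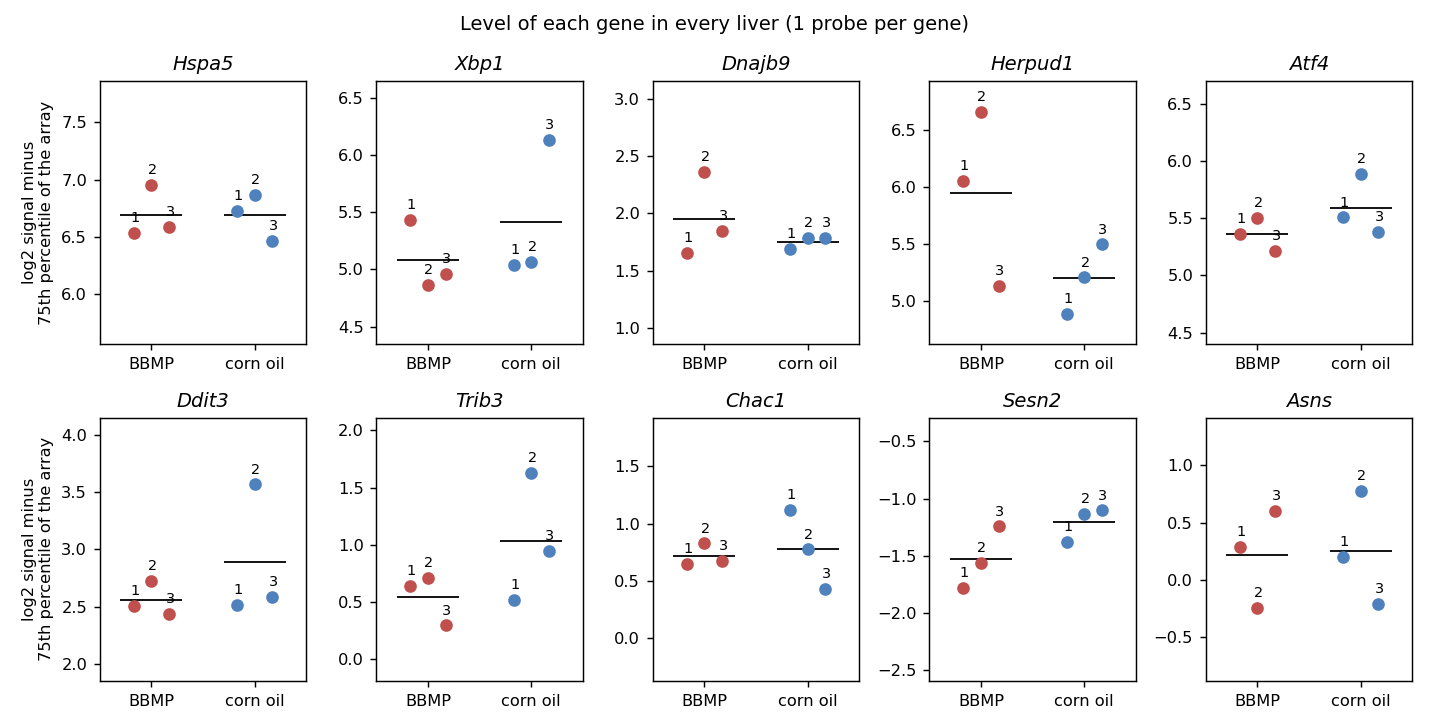
Level of each gene (log2 signal minus the array's 75th percentile) in each of 3 BBMP and 3 corn oil livers, 1 probe per gene; digits are replicate numbers, bars are group means, and every panel spans the same number of log2 units. The groups overlap for all 10 genes, BBMP 1 and BBMP 2 lie above the corn oil livers for Herpud1, and corn oil 2 is the top liver for Ddit3, Trib3, Atf4 and Asns.

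Among the genes of ER folding and degradation, Hspa5 encodes BiP, the main chaperone of the ER lumen and a standard readout of the unfolded protein response. Its level was 6.53, 6.95 and 6.58 in BBMP 1 to 3, against 6.72, 6.87 and 6.47 in corn oil 1 to 3. The values interleave, with BBMP 2 at the top and corn oil 3 at the bottom. On the log2 scale, the difference was 0.00 ± 0.16 (SE, limma adjusted p = 0.994), with a 95% interval of -0.39 to 0.40. Its sign was not stable: without BBMP 2 it was -0.13, without corn oil 3 it was -0.10, and with quantile normalisation it was -0.01.

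Xbp1 encodes the transcription factor made from the messenger that IRE1 splices. The position of its probe on the messenger is not given in the sources used here, so spliced and unspliced forms were not told apart. It stood at 5.43, 4.86 and 4.96 in BBMP 1 to 3, against 5.04, 5.06 and 6.13 in corn oil 1 to 3. Corn oil 3 alone was far above the other 5 livers, 1.08 above the mean of the other corn oil livers. The difference was -0.33 ± 0.33 (SE; limma adjusted p = 0.739; 95% interval -1.11 to 0.46), without corn oil 3 it was 0.03, and without corn oil 2 it was -0.50.

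Dnajb9 encodes ERdj4, a co-chaperone of BiP that is a target of XBP1. Its brighter probe read 1.65, 2.36 and 1.85 in BBMP 1 to 3, against 1.69, 1.79 and 1.78 in corn oil 1 to 3. The corn oil livers lay close together (SD 0.06) and BBMP 2 was above all others. The difference was 0.20 ± 0.19 (SE; limma adjusted p = 0.719), and without BBMP 2 it was -0.00. The other probe of the gene read 1.08, 1.68 and 1.26 in BBMP 1 to 3, against 1.34, 1.36 and 1.43 in corn oil 1 to 3, and differed by -0.04 ± 0.16 (SE; limma adjusted p = 0.952). Both probes put BBMP 2 at the top of the 6 livers, and they gave opposite signs for the group difference.

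Herpud1 encodes HERP, a membrane protein of the ER that takes part in the degradation of misfolded proteins and is induced by both ER stress and ATF4. On the probe that represents each gene, it had the largest difference and the widest range of the 10. Its brighter probe read 6.05, 6.66 and 5.13 in BBMP 1 to 3, against 4.89, 5.21 and 5.50 in corn oil 1 to 3. BBMP 1 and BBMP 2 were above every corn oil liver, while BBMP 3 lay among them. The difference was 0.75 ± 0.39 (SE; 1.68-fold; limma adjusted p = 0.524), with a 95% interval of -0.18 to 1.68.

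The other Herpud1 probe stood at 3.79, 4.67 and 3.00 in BBMP 1 to 3, against 2.66, 2.81 and 3.19 in corn oil 1 to 3. It too put BBMP 1 and BBMP 2 above every corn oil liver and BBMP 3 among them. Its difference was 0.93 ± 0.41 (SE; limma adjusted p = 0.494). Within the treated group, BBMP 2 exceeded BBMP 3 by 2.87-fold on the brighter probe and by 3.18-fold on the other, so the difference between these 2 treated livers was larger than that between the group means. Without BBMP 3 the difference on the brighter probe was 1.16 (limma adjusted p = 0.390), without BBMP 2 it was 0.39 (limma adjusted p = 0.709), and over the fits that left out 1 array the adjusted p lay between 0.390 and 0.802.

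The named genes whose pattern over the 6 arrays lay nearest to that of Herpud1 were found by Euclidean distance after each gene was centred on its mean, among 10707 other genes well above background on all 6 arrays. They were Krt20, a keratin (distance 0.30), Gskip, which binds the kinase GSK3 (0.53), Plk3, a stress-responsive kinase (0.53), Tdo2, the tryptophan dioxygenase of hepatocytes (0.57), and Acy3, an aminoacylase (0.58). The median distance over all these genes was 1.55. Tdo2 stood at 6.57, 7.28 and 6.24 in BBMP 1 to 3, against 5.89, 5.73 and 6.31 in corn oil 1 to 3. BBMP 2 was at the top and BBMP 3 among the corn oil livers. These genes were chosen for their likeness to Herpud1, so a shared pattern follows from the choice. The ranking is over 6 arrays and was not tested.

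**Figure D2:**
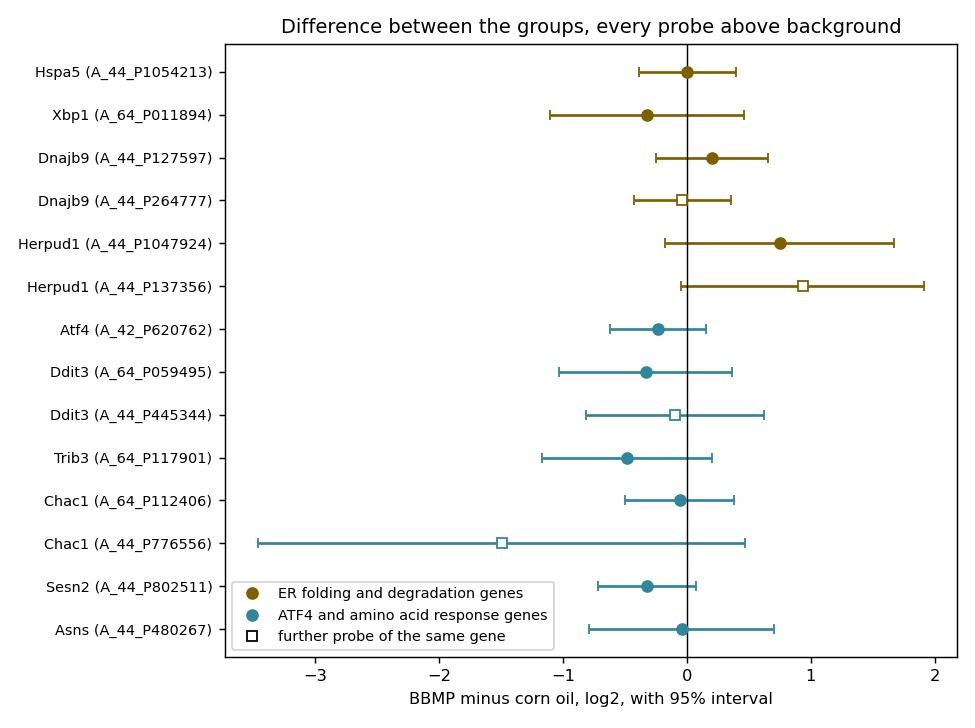
Difference in log2 signal, BBMP minus corn oil, with the 95% interval of the limma fit, for the 14 probes of the 10 genes that were well above background in at least 1 group; open squares are further probes of a gene. Every interval includes 0, and the Herpud1 probes and the dimmer Chac1 probe lie farthest from it.

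The ATF4 branch gave lower means after BBMP for all 6 of its members, none past the test, with 52.5% of all features lower. Without corn oil 2, Ddit3 (0.01) and Asns (0.22) were higher, and Atf4, Trib3, Sesn2 and Chac1 stayed lower. Atf4 encodes the transcription factor itself, whose activity is set mainly by translation of its messenger, which an array does not measure. It stood at 5.36, 5.51 and 5.21 in BBMP 1 to 3, against 5.51, 5.89 and 5.38 in corn oil 1 to 3. Corn oil 2 was the highest liver and the rest lay close together. The difference was -0.23 ± 0.16 (SE; limma adjusted p = 0.626), and without corn oil 2 it was -0.08.

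Ddit3 encodes CHOP, a transcription factor of the PERK and ATF4 branch that promotes cell death under prolonged stress. Its brighter probe read 2.50, 2.72 and 2.43 in BBMP 1 to 3, against 2.52, 3.57 and 2.58 in corn oil 1 to 3. Corn oil 2 lay 1.02 above the mean of the other corn oil livers, while the other 5 livers lay close together. The other probe, on a further transcript accession, read -0.32, 0.06 and -0.24 in BBMP 1 to 3, against -0.53, 0.61 and -0.28 in corn oil 1 to 3, and put corn oil 2 above the other corn oil livers by 1.01. The differences were -0.33 ± 0.29 and -0.10 ± 0.30 (SE; limma adjusted p = 0.699 and 0.924). Without corn oil 2 the differences of the means were 0.01 on the brighter probe and 0.24 on the other.

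Trib3 encodes a pseudokinase that binds AKT and ATF4 and is induced by CHOP and ATF4. It stood at 0.64, 0.71 and 0.30 in BBMP 1 to 3, against 0.52, 1.63 and 0.95 in corn oil 1 to 3. Corn oil 2 was the top liver, 1.85-fold above the mean of the other corn oil livers, and corn oil 1 lay within the BBMP range. The difference was -0.48 ± 0.29 (SE; limma adjusted p = 0.567; 95% interval -1.17 to 0.20). Without corn oil 2 it was -0.19, and without corn oil 1 it was -0.74 (limma adjusted p = 0.403).

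Chac1 encodes an enzyme that breaks down glutathione and is a sensitive target of ATF4, and its probes disagreed. The brightest read 0.65, 0.83 and 0.68 in BBMP 1 to 3, against 1.12, 0.78 and 0.43 in corn oil 1 to 3. On it the difference was -0.06 ± 0.18 (SE; limma adjusted p = 0.926), and without corn oil 1 it was 0.11. A dimmer probe, well above background on all 6 arrays, read -2.33, -2.30 and -3.00 in BBMP 1 to 3, against -2.42, 0.91 and -1.64 in corn oil 1 to 3. There corn oil 2 was 7.69-fold above the mean of the other corn oil livers, and the group difference was -1.49 ± 0.82 (SE; limma adjusted p = 0.559). Without corn oil 2 the difference of the means on that probe was -0.51.

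A further Chac1 probe was well above background in corn oil 2 alone. It read -7.08, -7.49 and -7.63 in BBMP 1 to 3, against -6.90, -2.89 and -6.29 in corn oil 1 to 3, and was not tested. Both dimmer probes therefore placed corn oil 2 far above the other 5 livers, and the brightest did not separate it from them. All 3 carry the same transcript accession, and where each binds is not given in the sources used here. With the gene's tested probes averaged, the Chac1 difference was -0.78 (limma adjusted p = 0.538), against -0.06 on the brightest, and without corn oil 2 the averaged difference was -0.29.

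**Figure D3:**
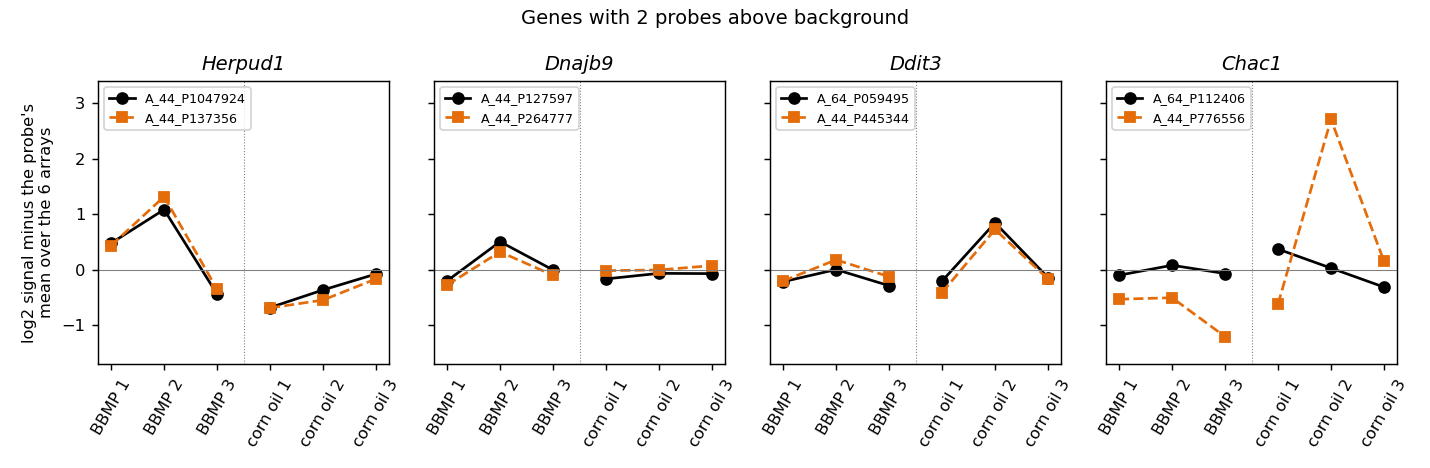
For the 4 genes with 2 probes above background, log2 signal minus the probe's mean over the 6 arrays, in 3 BBMP and 3 corn oil livers (BBMP left of the dotted line). The probes of Herpud1, Dnajb9 and Ddit3 run together, whereas for Chac1 only the dimmer probe peaks in corn oil 2.

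Sesn2 encodes sestrin 2, an ATF4 and p53 target that restrains mTORC1 when leucine is scarce. It stood at -1.78, -1.57 and -1.24 in BBMP 1 to 3, against -1.38, -1.14 and -1.10 in corn oil 1 to 3. BBMP 3 lay among the corn oil livers and the other BBMP livers were below them. The difference was -0.32 ± 0.16 (SE; limma adjusted p = 0.522; 95% interval -0.72 to 0.07). It was -0.47 without BBMP 3 and -0.20 without BBMP 1, and corn oil 2 did not stand out for this gene.

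Asns encodes asparagine synthetase, the classical amino acid response gene. It stood at 0.29, -0.25 and 0.60 in BBMP 1 to 3, against 0.20, 0.78 and -0.21 in corn oil 1 to 3. The 6 livers spanned 1.03 log2 units, and each group covered most of that range. The difference was -0.04 ± 0.31 (SE; limma adjusted p = 0.971; 95% interval -0.79 to 0.71). Without corn oil 2 it was 0.22, without BBMP 2 it was 0.19, and with normexp background correction it was 0.02. BBMP 2, the top liver for Hspa5, Dnajb9 and Herpud1, was the lowest for Asns.

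**Figure D4:**
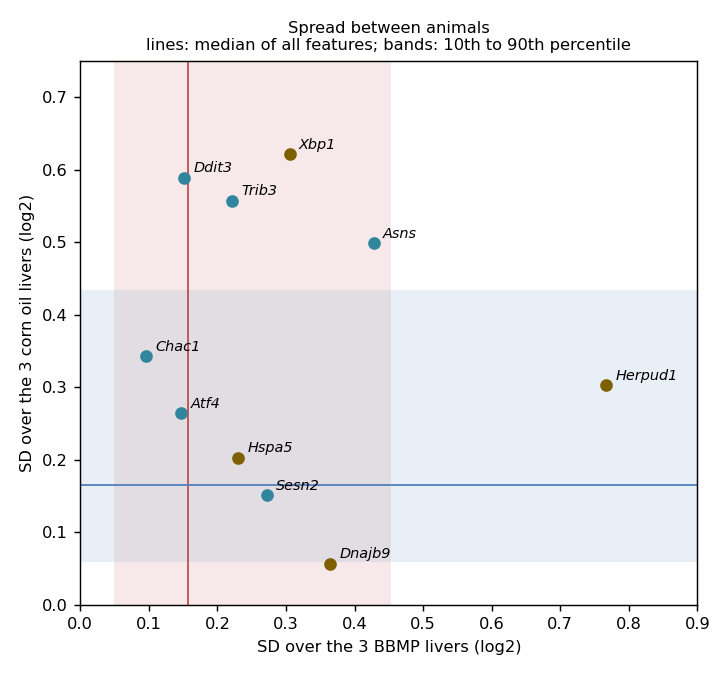
SD over the 3 BBMP livers (horizontal, log2) against SD over the 3 corn oil livers (vertical, log2) for each gene, ER folding and degradation genes in brown and ATF4 and amino acid response genes in blue-green; lines mark the median SD of all features and bands their 10th to 90th percentile. Xbp1, Ddit3, Trib3 and Asns lie above the corn oil band and Herpud1 lies beyond the BBMP band.

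Corn oil 2 was the top liver for 4 of the 10 genes, Atf4, Ddit3, Trib3 and Asns, all of the ATF4 branch, where it was the top array for 21.5% of 28098 features with values on every array. BBMP 2 was the top liver for 3 genes, Hspa5, Dnajb9 and Herpud1, all of the ER branch, against 17.6% of all features. Over the 14 probes above background, 6 were highest in corn oil 2 and 5 in BBMP 2. The pathway lists below divided in the same way only in part. BBMP 2 was the top liver for 7 of 18 ER-associated degradation and translocation genes, and corn oil 2 for 3. Among 16 other ATF4 and CHOP targets, corn oil 2 was the top liver for 7 and BBMP 2 for 4. The order was the reverse among 18 ER chaperones and folding enzymes, with corn oil 2 at the top for 8 and BBMP 2 for 5. It was also the reverse among 19 aminoacyl-tRNA synthetases, with BBMP 2 at the top for 10 and corn oil 2 for 4. Among 17 amino acid synthesis and transport genes each was the top liver for 7. Among 16 stress sensors, kinases and phosphatases BBMP 2 was at the top for 7 and corn oil 2 for 2. This describes single animals after their values were seen and was not tested.

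Other genes of these pathways, 131 in 7 lists that leave out the 10 members, were read from the same fit, and 115 of them were tested. None passed the adjusted threshold. At an unadjusted p under 0.05 there were 9 genes (7.83%, against 10.8% of all features), 2 higher and 7 lower after BBMP, and the groups did not overlap for 14.8% of the genes, against 17.9% of all features. The median difference over the 115 genes was -0.03. Of the genes named below, Calr, Derl3, Eif2ak4, Atf3, Bhlhe40, Vegfa, Aldh1l2, Shmt2 and Eprs1 were lower without overlap. Ero1a, Dnajb4 and Trib2 were higher without overlap. Without corn oil 2, 2 of the 115 (1.74%) were past an unadjusted 0.05, against 6.88% of all features.

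Among 18 tested ER chaperones and folding enzymes, 6 were higher and 12 lower after BBMP, with a median of -0.07 (7 and 11 without corn oil 2). Calr, the calcium-binding lectin chaperone calreticulin, read 4.26, 4.10 and 4.12 in BBMP 1 to 3, against 4.56, 4.58 and 4.34 in corn oil 1 to 3, without overlap. Its difference was -0.33 ± 0.11 (SE; limma adjusted p = 0.415). The protein disulfide isomerase Pdia4 differed by -0.41 ± 0.18 and the oxidase Ero1a by 0.27 ± 0.13 (limma adjusted p = 0.473 and 0.492).

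Of 18 tested genes of ER-associated degradation and translocation, 11 were higher and 7 lower, with a median of 0.04 (9 and 9 without corn oil 2). Edem3, a mannosidase that marks proteins for degradation, differed by -0.41 ± 0.16 (SE; limma adjusted p = 0.454). Derl3, a channel component, differed by -0.63 ± 0.29 (SE; limma adjusted p = 0.489), with corn oil 2 at 1.45 against 0.42 and 0.58 in the other corn oil livers, and by -0.31 without corn oil 2. The translocon protein Ssr2 differed by 0.20 ± 0.12. Of 16 stress sensors and eIF2alpha kinases and phosphatases, 9 were higher and 7 lower, with a median of 0.02 (8 and 8 without corn oil 2). Eif2ak4, which encodes GCN2, differed by -0.29 ± 0.12 without overlap (SE; limma adjusted p = 0.455). Ppp1r15a, the stress-induced phosphatase subunit GADD34, differed by -0.43 ± 0.33, and Dele1 by -0.11 ± 0.10.

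Of 16 other ATF4 and CHOP targets tested, 5 were higher and 11 lower, with a median of -0.06 (7 and 9 without corn oil 2). The transcription factor Bhlhe40 differed by -0.98 ± 0.33, the BH3-only protein Bbc3 by -0.49 ± 0.17 and the growth factor Vegfa by -0.29 ± 0.12 (SE; limma adjusted p = 0.421, 0.426 and 0.458). The median SD of this list was 0.17 over BBMP livers and 0.30 over corn oil livers, beside 0.16 and 0.17 for all features. Corn oil 2 was the top corn oil liver for 9 of the 16 (56.2%), against 32.7% of all features. The shares in the other lists lay on both sides of that background: 10 of 17 amino acid synthesis and transport genes (58.8%), 9 of 18 chaperones, 7 of 19 tRNA synthetases (36.8%), 4 of 12 paralogs of the members (33.3%), 4 of 18 degradation and translocation genes (22.2%) and 3 of 16 sensors, kinases and phosphatases (18.8%). The 3 genes that follow were chosen from the list after their values were seen. Atf3, a stress transcription factor, read -0.92, -1.17 and -0.96 in BBMP 1 to 3, against -0.62, 1.64 and -0.88 in corn oil 1 to 3. The hormone Fgf21 read 1.78, 1.07 and 1.81 in BBMP 1 to 3, against 0.60, 3.33 and 1.96 in corn oil 1 to 3. The stress cytokine Gdf15 read -2.41, -2.31 and -2.35 in BBMP 1 to 3, against -3.13, -1.18 and -2.71 in corn oil 1 to 3. All of these put corn oil 2 above the other 5 livers, as Ddit3, Trib3 and the dimmer Chac1 probes did. They are the 3 genes of the list with the largest excess of corn oil 2 over the other corn oil livers. Corn oil 2 was the top liver for 7 of the 16 genes.

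Marker lists of other cell types were read on the same arrays. The summed signal of 3 neutrophil markers on the array, in multiples of the array's 75th percentile, was 0.773 to 1.49 in BBMP livers and 1.20 to 3.31 in corn oil livers, with corn oil 2 at the top. Of these, 2 were well above background on all 6 arrays. The sum of 5 T and NK cell markers was 1.72 to 2.41 in BBMP livers and 1.95 to 2.88 in corn oil livers, with corn oil 2 again at the top, and 3 of the 5 were well above background on all arrays. Plasma cells, as professional secretory cells, express much Xbp1. The 3 B and plasma cell markers on the array summed to 0.276 to 0.544 in BBMP livers and 0.415 to 0.651 in corn oil livers. The lists whose sums did not overlap between the groups were those of stellate cells and fibroblasts (7 markers, all well above background on all arrays), at 27.2 to 31.8 in BBMP livers and 35.0 to 39.9 in corn oil livers, and of pancreatic acinar cells, at 0.627 to 1.00 in BBMP livers and 0.444 to 0.614 in corn oil livers. Of the 7 stellate cell and fibroblast markers, 2 were higher and 5 lower after BBMP, with 3 past an unadjusted 0.05. Both tested acinar markers were higher and past an unadjusted 0.05, while Prss1, Pnlip and Cela1 were not well above background on any array. Among all features, 10.8% were past an unadjusted 0.05, and for 17.9% the groups did not overlap. No marker of any list passed the adjusted threshold. The sums overlapped for macrophages (65.7 to 82.7 in BBMP livers, 49.8 to 82.1 in corn oil livers), endothelial cells (40.8 to 46.3 in BBMP livers, 37.3 to 45.7 in corn oil livers) and cholangiocytes (1.27 to 1.36 in BBMP livers, 0.919 to 1.41 in corn oil livers). Higher after BBMP were 7 of 7 tested macrophage markers (0 past an unadjusted 0.05), 3 of 4 endothelial markers and 2 of 4 cholangiocyte markers. The part of these cells in the results was not tested.

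Amino acid synthesis and transport genes were higher in 7 and lower in 10 of 17 cases, with a median of -0.13. Without corn oil 2, 10 were higher and 7 lower, with a median of 0.06. Aldh1l2, a mitochondrial folate enzyme, read 3.66, 3.64 and 4.01 in BBMP 1 to 3, against 4.20, 4.38 and 4.10 in corn oil 1 to 3, without overlap. Its difference was -0.46 ± 0.14 (SE; limma adjusted p = 0.406). Shmt2, the mitochondrial serine hydroxymethyltransferase, differed by -0.21 ± 0.09 and Pycr1, of proline synthesis, by 0.43 ± 0.19 (limma adjusted p = 0.477 and 0.480).

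The aminoacyl-tRNA synthetases, which charge tRNA with amino acids and are in part ATF4 targets, were higher in 8 and lower in 11 of 19 cases, with a median of -0.04. Aars1 differed by -0.33 ± 0.15 and Eprs1 by -0.25 ± 0.12 (SE; limma adjusted p = 0.485 and 0.502). BBMP 2 was the top BBMP liver for 13 of these 19 genes (68.4%), against 37.8% of all features. Its share was above that background in every other list too. It ran from 41.7% of the paralogs and 43.8% of the other ATF4 and CHOP targets to 66.7% of the degradation and translocation genes. Paralogs of the members were higher in 7 and lower in 5 of 12 cases, with a median of 0.09. The cytosolic co-chaperone Dnajb4 differed by 0.52 ± 0.21, Trib2 by 0.22 ± 0.11 and the sestrin Sesn3 by -0.24 ± 0.14 (SE; limma adjusted p = 0.451, 0.519 and 0.558). Missing the threshold is not evidence that a gene was unaffected.

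**Figure D5:**
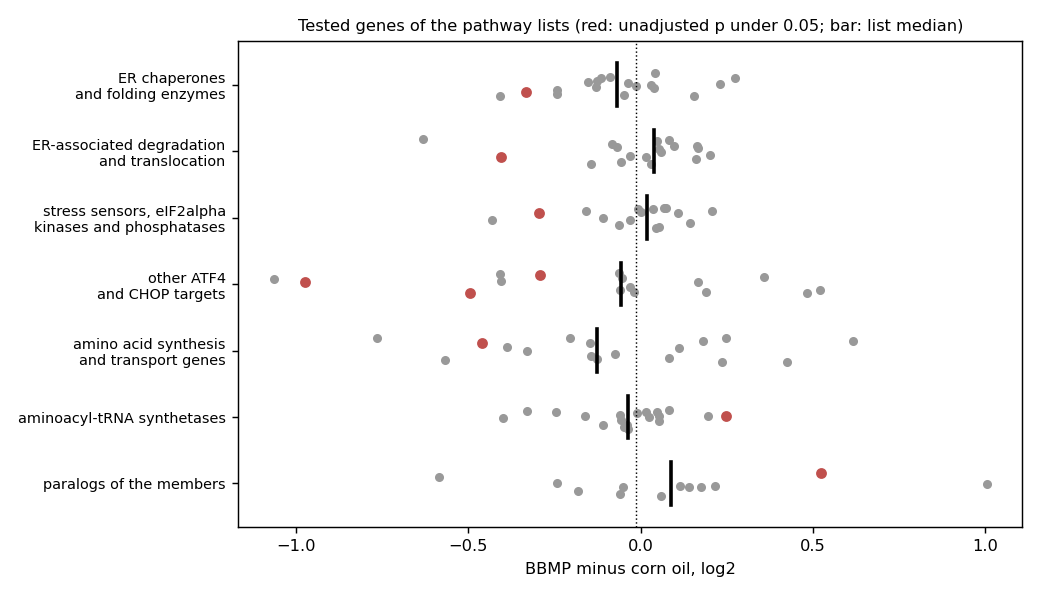
Difference in log2 signal, BBMP minus corn oil, for each tested gene of the 7 pathway lists; red points have an unadjusted limma p under 0.05, bars are list medians and the dotted line is the median of all features. The list medians lie between -0.13 and 0.09, and 0 genes passed the adjusted threshold.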

How the data were processed

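The authors deposited scanner files with each spot's linear intensity, made by Agilent Feature Extraction 10.7.1.1 per the file headers (design 035170, annotated on rn4), without scaling between arrays. The authors' value table held the same linear intensity divided by 1 constant per array, with column medians from 0.0965 to 0.0998. The step behind it is not given in the sources used here. The constants, 449.4 to 567.9, lay close to the arrays' 75th percentiles, 450.1 to 570.4. As an alternative setting, the value table therefore nearly repeats the main scaling. Control spots and 84 spike-in probes were left out. Probes were named by accession through the RefSeq table of GRCr8, and 27460 of 61573 matched. The log2 of the processed signal minus each array's 75th percentile was fitted with limma 3.58.1 (R 4.3.3; lmFit, eBayes, two-sided, no covariate), adjusted by Benjamini-Hochberg over all 28112 features (threshold 0.05). A feature was tested if well above background on all 3 arrays of a group, and a gene was represented by its brightest such probe. Further probes come from a fit over every probe. Differences are BBMP minus corn oil. The fit was tested on simulated data. Named pathway genes are the 3 of each list with the smallest p, unless stated; 1 of them is not reported here. The members and lists were chosen with earlier results of these data known. Alternatives were another background correction, scaling, filter, probe rule, variance model, the value table, a replicate block and leaving out each array. Tables used Python 3.11.15.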

Additional observations from a re-analysis of the deposited data

How the results depend on the processing

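No setting brought any of the 10 genes past adjusted p 0.05. The number past an unadjusted 0.05, 0 as reported, was 1 (Sesn2) with normexp on the median spot signal, 1 (Sesn2) with the replicate block, and 0 to 2 with 1 array left out, the highest without BBMP 3 (Herpud1 and Sesn2); without corn oil 1 it was 1 (Trib3). Features past adjusted p 0.05, 2 as reported, were 0 with normexp, 1 without a filter, 0 with the filter on all 6 arrays and 0 with the replicate block (3252, 3308, 2835 and 3235 at an unadjusted p under 0.05), and 0 to 4 with 1 array left out. Nothing in the labels ties same-numbered animals together. Correlations of deviations were 0.089, 0.016 and 0.072 for same-numbered pairs, against -0.104 to 0.033 for the other pairs. Signs turned for Asns (0.0197 with normexp, 0.22 without corn oil 2 and 0.19 without BBMP 2; range with 1 array left out -0.28 to 0.22), Hspa5 (-0.0123 with quantile normalisation, -0.10 without corn oil 3 and -0.13 without BBMP 2; range -0.13 to 0.0953), Chac1 (0.11 without corn oil 1; range -0.23 to 0.11), Ddit3 (0.0057 without corn oil 2; range -0.52 to 0.0057), Xbp1 (0.0335 without corn oil 3; range -0.51 to 0.0335) and Dnajb9 (-0.0020 without BBMP 2; range -0.0020 to 0.35). Herpud1, Sesn2, Trib3 and Atf4 kept their sign in every setting run. The cause of these moves was not tested, beyond the array left out. Normexp was planned on the spot signal held by the files, which is the median. Signal over background limits the dimmest Chac1 probe, measured in corn oil 2 alone.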
